A study of Mus musculus with 13 samples.

Results

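The Kcnq1ot1-Cdkn1c domain is an imprinted stretch of distal mouse chromosome 7, and 10 of its genes were followed by name in a table of 23217 genes. The members were Kcnq1ot1, Cdkn1c, Kcnq1, Phlda2, Slc22a18, Tssc4, Cd81, Tspan32, Osbpl5 and Nap1l4, and all 10 were in the table. Polyadenylated RNA was sequenced from 13 C57BL/6J mouse embryos, 10 labelled xHomo and 3 labelled xHet, all at embryonic day 9.5. The labels spell out neither name. The series is about Tet1, a dioxygenase that oxidizes 5-methylcytosine, in imprint erasure, and as far as the study is known the xHomo and xHet embryos had fathers homozygous and heterozygous for a Tet1 mutation. The labels give no genotype of the embryos themselves, no litter and no sex. P-values therefore measure the spread between these samples, which may be partly technical.

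An imprinted gene is read mainly from the copy of 1 parent, as fixed by DNA methylation set in that parent's germ line. In this domain the control element lies inside Kcnq1 and carries methylation on the maternal copy. On the unmethylated paternal copy it is the promoter of Kcnq1ot1, a long noncoding RNA read antisense to Kcnq1, which silences protein-coding neighbours on the same chromosome. Cdkn1c, Kcnq1, Phlda2 and Slc22a18 are known as maternally expressed in the mouse embryo and placenta, while the genes farther out (Tspan32, Cd81, Tssc4, Nap1l4 and Osbpl5) are known for maternal expression mostly in the placenta. The deposited values do not separate the parental copies, so allelic expression was not measured.

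The bases before the start of 3 members are shown because these members differed by 1 log2 unit or more from the mean of the xHet embryos in some embryo and have a RefSeq promoter entry (build GRCm38.p6, whereas the expression table uses mm9). Of the 10 members 7 matched such an entry. The windows are the 250 bases before the annotated start, with the letters CCAAT in capitals, and they lie at chr7:143296548-143296797 on the minus strand (Kcnq1ot1), chr7:143502525-143502774 on the minus strand (Phlda2) and chr7:143004796-143005045 on the plus strand (Tspan32).
Kcnq1ot1: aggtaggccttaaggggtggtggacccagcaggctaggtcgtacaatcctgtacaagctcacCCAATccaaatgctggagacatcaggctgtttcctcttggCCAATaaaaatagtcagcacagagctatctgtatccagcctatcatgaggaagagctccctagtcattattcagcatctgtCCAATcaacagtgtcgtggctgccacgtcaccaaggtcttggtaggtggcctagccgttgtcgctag
Phlda2: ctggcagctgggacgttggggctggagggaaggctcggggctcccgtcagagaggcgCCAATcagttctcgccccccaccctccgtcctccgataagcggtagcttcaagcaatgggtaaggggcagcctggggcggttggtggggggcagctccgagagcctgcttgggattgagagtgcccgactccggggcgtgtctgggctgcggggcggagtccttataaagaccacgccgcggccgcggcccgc
Tspan32: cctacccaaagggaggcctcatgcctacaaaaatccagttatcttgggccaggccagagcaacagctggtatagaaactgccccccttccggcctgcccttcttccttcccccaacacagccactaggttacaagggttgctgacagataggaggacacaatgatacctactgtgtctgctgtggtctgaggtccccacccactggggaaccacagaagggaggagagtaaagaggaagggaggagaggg
The letters were searched as CCAAT and, for the other strand, ATTGG. Kcnq1ot1 held 3 matches, Phlda2 held 1 and Tspan32 held 0. Of 32851 promoter windows of this length, 33.8% held at least 1 match and 2.79% held 3 or more. CG pairs, the sites of DNA methylation, numbered 5 in the Kcnq1ot1 window, 21 in that of Phlda2 and 1 in that of Tspan32, against a median of 6 over all windows. CG pairs past the annotated start were not counted, so the number for Kcnq1ot1 does not describe the whole control element. A match is a run of letters and not a measured binding site.

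Levels are given as FPKM, which scales fragments to transcript length and to the mapped fragments of the library, and coordinates are those of the deposited mm9 loci, counted from 1. Summed FPKM was 500126 to 662936 in xHomo embryos and 543948 to 570161 in xHet embryos, and the number of reads behind the values is unknown. Tet1 averaged 2.15 ± 0.543 FPKM in xHomo embryos (SD, n = 10) and 2.35 ± 0.367 FPKM in xHet embryos (SD, n = 3), so its RNA did not separate the labels. The Y-linked gene Ddx3y was above 11.7 FPKM in xHomo embryos 1, 4, 5, 6 and 8 and in all 3 xHet embryos, and at most 0.03 FPKM in the other 5 xHomo embryos. The groups are thus unbalanced for sex. xHomo embryo 3 stood apart, with 10.2% of all genes tested differing by 1 log2 unit or more from the mean of the xHet embryos. After median-of-ratios scaling, which evens out the median of the genes between embryos, its share was 4.74%, close to 4.13% in xHomo embryo 9. Unscaled, the share was 1.76%, 1.48%, 1.53%, 1.68%, 1.45%, 2.12%, 2.3%, 4.56% and 1.85% in xHomo embryos 1, 2 and 4 to 10, and 1.14%, 1.11% and 1.09% in xHet embryos 1 to 3. The median of all genes in xHomo embryo 3 was -0.27 log2 units from the xHet mean, and 0.03 after median-of-ratios scaling, so its log2 differences are given on both scales, while FPKM are given as deposited. Markers of an embryo of this age, from Sox2 of the neural tube to Myl7 of the heart, were above 1 FPKM in all 13 embryos for 15 of 15 listed genes.

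On the per-length FPKM scale and averaged over all embryos, the members ran in level from Cd81 (181 FPKM) over Cdkn1c (98.5), Nap1l4 (94.1), Tssc4 (27.9), Phlda2 (5.78), Osbpl5 (2.65), Kcnq1ot1 (2.10), Tspan32 (1.95) and Slc22a18 (0.535) to Kcnq1 (0.418). The ranges of Nap1l4 and Tssc4, and of Tssc4 and Phlda2, did not overlap between embryos. All other neighbours in this order overlapped. Cdkn1c was above Nap1l4 in 7 of 13 embryos and Kcnq1ot1 was above Tspan32 in 7 of 13, so these pairs have no fixed order.

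Kcnq1ot1, the silencing RNA itself, was low in 1 xHomo embryo and between 1.66 and 2.50 FPKM in the other 9. It stood at 2.50, 2.50, 0.30, 1.97, 1.66, 1.99, 2.37, 2.31, 2.18 and 2.29 FPKM in xHomo embryos 1 to 10, against 2.20, 2.49 and 2.55 FPKM in xHet embryos 1 to 3. The value of xHomo embryo 3 was 0.124 of the xHet mean, and every other xHomo embryo was at 1.66 FPKM or more. On the log2(FPKM + 1) scale, which understates changes of low genes, xHomo embryo 3 was -1.39 from the xHet mean, or -1.31 after median-of-ratios scaling. Among all genes tested 2.49% were at least as far down in that embryo, or 1.43% after that scaling. Between the groups the log2 difference was -0.23 (SE 0.24, limma adjusted p = 0.782), and 5 xHomo embryos lay below all xHet embryos, the other 5 within their range. Without xHomo embryo 3 the difference was -0.10 (limma adjusted p = 0.626).

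Cdkn1c encodes p57, an inhibitor of cyclin-dependent kinases that restrains growth and is a known target of Kcnq1ot1 silencing (chromosome 7, 150644244 to 150646955). It stood at 87.9, 69.1, 192, 109.9, 111, 101, 104, 108, 86.6 and 102 FPKM in xHomo embryos 1 to 10, against 74.4, 67.9 and 67.0 FPKM in xHet embryos 1 to 3. Its highest value was in xHomo embryo 3, the embryo with the lowest Kcnq1ot1, at 2.76 times the xHet mean. Of the xHomo embryos 9 were above all xHet embryos, and xHomo embryo 2 lay within their range. In xHomo embryo 3 the difference was 1.45 log2 units, or 1.82 after median-of-ratios scaling, and on either scale 0.329% of genes tested were at least as far up. The ratio of Cdkn1c to Kcnq1ot1 FPKM was 641 in xHomo embryo 3, 27.6 to 67.0 in the other xHomo embryos and 26.3 to 33.8 in the xHet embryos. The ratio of 641 is uncertain, because it rests on a Kcnq1ot1 value of only 0.30 FPKM.

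**Figure D1:**
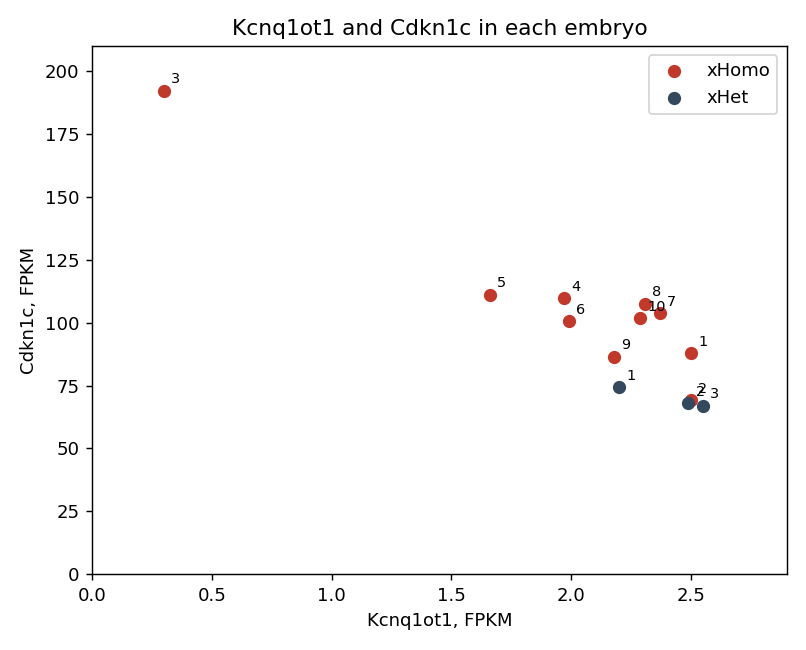
FPKM of Kcnq1ot1 (x axis) and Cdkn1c (y axis) in each of 10 xHomo and 3 xHet embryos, with points labelled by embryo number. xHomo embryo 3 lies alone at 0.30 FPKM of Kcnq1ot1 and 192 FPKM of Cdkn1c, while the other 12 embryos lie at 1.66 to 2.55 FPKM of Kcnq1ot1.

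As group means Cdkn1c was 107 ± 32.6 FPKM in xHomo embryos (SD, n = 10) and 69.8 ± 4.04 FPKM in xHet embryos (SD, n = 3), a log2 difference of 0.56 (SE 0.21, unadjusted p = 0.0157, limma adjusted p = 0.494). Without xHomo embryo 3 the difference was 0.47 (unadjusted limma p = 0.0029, limma adjusted p = 0.194). Unadjusted, 1927 of 12755 genes were under 0.05 in that setting. After median-of-ratios scaling it was 0.53 (unadjusted limma p = 0.0653), and after rescaling to a fixed sum 0.49 (unadjusted limma p = 0.0672). With the replicate numbers as a block it was 0.59 (unadjusted limma p = 0.15), so the unadjusted p was above 0.05 in these 3 settings. With Xist as a covariate the difference was 0.61 (unadjusted limma p = 0.0214, limma adjusted p = 0.5045). Unadjusted, 1148 genes were under 0.05 with that covariate. Among embryos with Ddx3y the difference was 0.56 (unadjusted limma p = 0.000239, limma adjusted p = 0.0808), where 2445 genes were under 0.05 unadjusted. There the groups did not overlap, with 87.9 to 111 FPKM in 5 xHomo embryos and 67.0 to 74.4 FPKM in 3 xHet embryos. In that comparison 11.7% of all genes did not overlap with xHomo embryos higher and 2.02% with them lower, and the same held among the members tested for Cdkn1c and Cd81, both higher. With array weights, which let embryos count unequally, Cdkn1c passed (limma adjusted p = 0.00324), as did 21.8% of all genes.

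Kcnq1, whose product is a voltage-gated potassium channel subunit, and Kcnq1ot1 share the deposited locus (chromosome 7, 150293159 to 150612947). The libraries were directional, but strand use in the quantification is not given in the sources used here, so reads of this antisense pair may have been shared. Kcnq1 was at 0.49, 0.30, 0.33, 0.43, 0.30, 0.40, 0.54, 0.44, 0.28 and 0.53 FPKM in xHomo embryos 1 to 10, against 0.46, 0.46 and 0.47 FPKM in xHet embryos. Its value in xHomo embryo 3 lay inside the range of the other xHomo embryos, unlike that of Kcnq1ot1. Kcnq1 and Slc22a18 averaged under 1 FPKM and were left out of the group test, so 8 of 10 members were tested. With no filter on low values Kcnq1 had a log2 difference of -0.06 (limma adjusted p = 0.831).

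Phlda2, a small pleckstrin-homology protein known in mice to limit placental growth (chromosome 7, 150687453 to 150688429), varied most among the members tested. It stood at 3.33, 11.8, 6.14, 2.83, 5.52, 2.39, 5.80, 5.49, 4.62 and 6.89 FPKM in xHomo embryos 1 to 10, against 6.27, 9.09 and 4.97 FPKM in xHet embryos 1 to 3. xHomo embryos 1, 4 and 6 were lowest and xHomo embryo 2 highest, and the groups overlapped. Its SD on the log2 scale was 0.56 among xHomo embryos, above 96.0% of genes tested, and 0.38 among xHet embryos. In xHomo embryo 6 it was -1.16 log2 units from the xHet mean. As groups the difference was -0.33 (SE 0.31, limma adjusted p = 0.757). It was -0.68 among embryos with Ddx3y (limma adjusted p = 0.225), -0.67 with Xist as a covariate (limma adjusted p = 0.526), -0.12 without xHet embryo 2 and -0.50 without xHet embryo 3. In xHomo embryo 3, with little Kcnq1ot1, Phlda2 was -0.09 from that mean, or 0.24 after median-of-ratios scaling.

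Trophoblast markers were set beside Phlda2, a gene of the placenta. Of 12 listed markers 7 stayed below 1 FPKM in every embryo, and Tpbpa and Ctsq were listed at 0 in all 13. The summed trophoblast list was 17.0 to 26.7 FPKM in xHomo and 16.5 to 19.7 FPKM in xHet embryos, most of it Hand1 and Plac1. Hand1, also a gene of the heart, was 10.1 to 14.7 FPKM in xHomo and 8.83 to 9.21 FPKM in xHet embryos (limma adjusted p = 0.372). The groups likewise separated on the higher side for 1.66% of all genes. Of the 3 markers tested the other 2 were lower in xHomo embryos. Prl3b1 averaged 1.22 FPKM in xHomo and 2.06 FPKM in xHet embryos, and Plac1 6.13 and 6.60 FPKM. The summed list was 26.5 FPKM in xHomo embryo 2, where Phlda2 was highest, and 26.7 FPKM in xHomo embryo 5, where Phlda2 was 5.52 FPKM. The part of placental tissue in the Phlda2 values was not tested.

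Slc22a18, a transporter-like membrane protein (chromosome 7, 150659660 to 150685237), stayed low throughout. It was 0.26 to 0.85 FPKM in xHomo embryos, with a median of 0.565, against 0.55 to 0.61 FPKM in xHet embryos, and its highest value was in xHomo embryo 3. There it was 0.23 log2 units from the xHet mean, or 0.42 after scaling, short of the 1 unit taken as a departure.

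**Figure D2:**
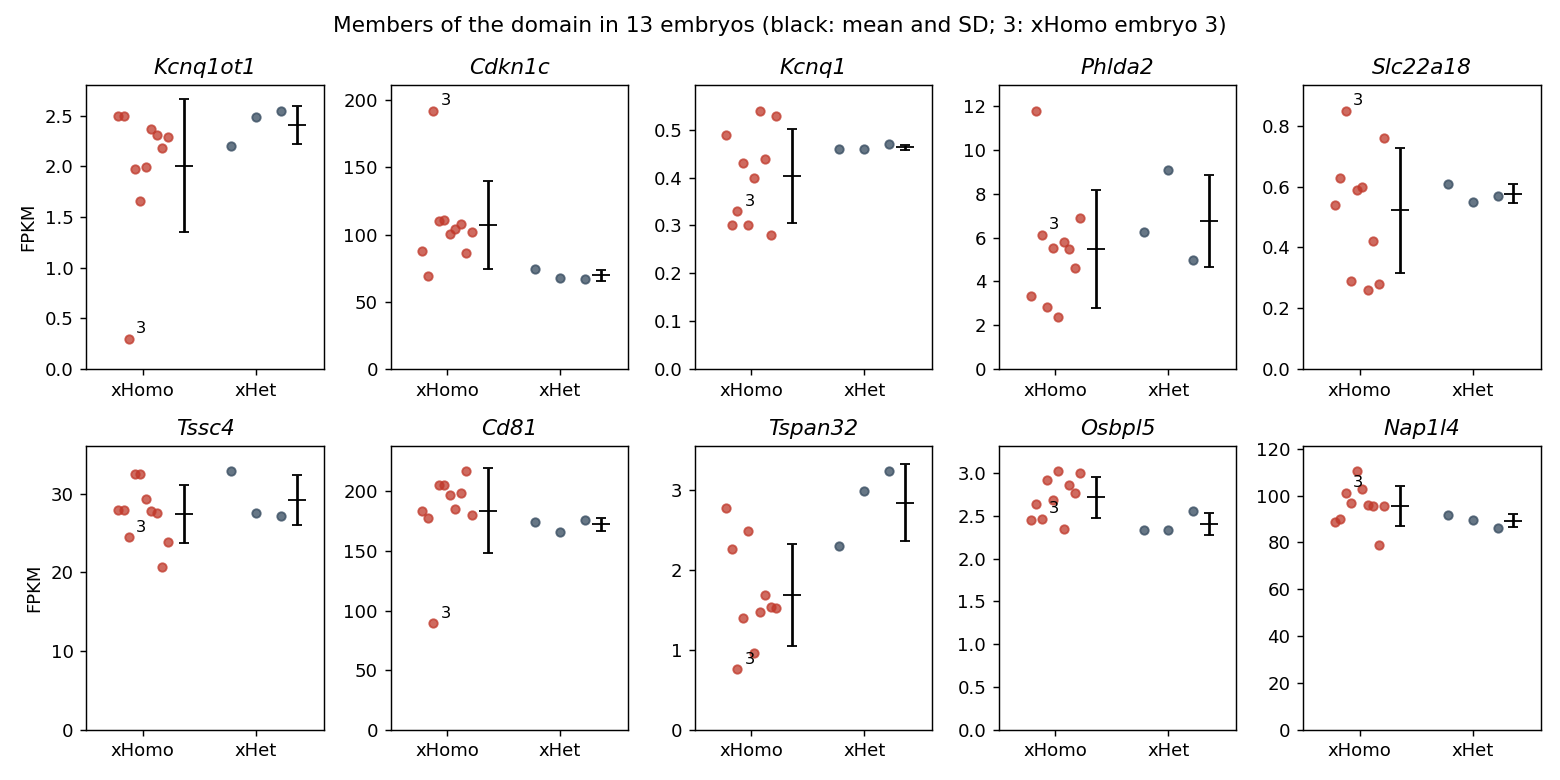
FPKM of each member in 10 xHomo embryos (left in each panel) and 3 xHet embryos (right), with the mean and SD in black and xHomo embryo 3 numbered. In that embryo Kcnq1ot1 and Cd81 are the lowest and Cdkn1c the highest of the group, at 0.30, 89.3 and 192 FPKM.

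Farther out, Cd81, an abundant tetraspanin of the cell surface (chromosome 7, 150218526 to 150253835), shares its locus with the transcript R74862, so its value is uncertain to that extent. R74862 was listed at 1.56 to 3.98 FPKM, and how reads of the shared locus were divided is not given. Cd81 stood at 183, 178, 89.3, 206, 205, 197, 186, 199, 217 and 180.3 FPKM in xHomo embryos 1 to 10, against 175, 166 and 176 FPKM in xHet embryos 1 to 3. xHomo embryo 3 was below and the other 9 xHomo embryos above all xHet embryos. The group difference was 0.06 (SE 0.20, limma adjusted p = 0.935), with the opposite sign, -0.02, when values were rescaled to a fixed sum. Without xHomo embryo 3 it was 0.17 (limma adjusted p = 0.326), and among embryos with Ddx3y 0.20 (limma adjusted p = 0.208). In xHomo embryo 3 Cd81 was -0.94 log2 units from the xHet mean, or -0.57 after median-of-ratios scaling. On these scales 11.3% and 14.4% of genes tested were at least as far down.

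Tspan32, a tetraspanin known from blood cells (chromosome 7, 150190951 to 150205390), was at 2.77, 2.26, 0.76, 1.40, 2.49, 0.96, 1.47, 1.69, 1.53 and 1.52 FPKM in xHomo embryos 1 to 10, against 2.30, 2.99 and 3.23 FPKM in xHet embryos. Below all xHet embryos lay 8 xHomo embryos, while xHomo embryos 1 and 5 lay within the xHet range. The group difference was -0.55 (SE 0.20, unadjusted p = 0.0178, limma adjusted p = 0.498), and limma adjusted p = 0.00975 with array weights. xHomo embryo 3 was -1.12 from the xHet mean, but -0.95 after median-of-ratios scaling.

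Other genes of the tetraspanin family were set beside these members. In xHomo embryo 3 all 19 of these genes tested were below the xHet mean, with a median of -0.85. After median-of-ratios scaling 18 of 19 were, with a median of -0.48. The median of all genes in that embryo was itself -0.27, or 0.03 after this scaling. As groups, 0 of the 19 passed in limma or had an unadjusted p under 0.05, and their median difference was 0.02, against 0.05 for all genes. Red cell markers were low in xHomo embryos 4 and 6, where all 10 lay below the xHet mean with medians of -0.78 and -0.71. The medians of all genes there were 0.10 and 0.11. The summed red cell markers were 5186 and 6209 FPKM. In the other xHomo embryos they were 9430 to 15313 FPKM, and in the xHet embryos 10085 to 10224 FPKM. Platelet and white cell markers summed to 35.8 FPKM in xHomo embryo 3, the lowest of all, against 42.7 to 81.3 in the other xHomo and 63.6 to 67.5 in the xHet embryos. Of these markers Ptprc, Csf1r and Runx1 stayed below 1 FPKM in every embryo, while Coro1a and Laptm5 were above 2 FPKM in every embryo. Coro1a was 3.11 to 5.03 FPKM in xHomo and 2.21 to 2.77 FPKM in xHet embryos (limma adjusted p = 0.471), the direction opposite to Tspan32. The groups likewise separated on the higher side for 1.66% of all genes. Of the 8 markers of this list tested, 3 were higher and 5 lower in xHomo embryos, with a median difference of -0.09. In bulk RNA fewer blood cells and less RNA per cell cannot be told apart, and the part of blood cells in the Tspan32 values was not tested.

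Tssc4, a factor of spliceosome assembly (chromosome 7, 150255273 to 150256992), was 20.7 to 32.5 FPKM in xHomo embryos with a median of 27.9, against 27.2 to 32.8 FPKM in xHet embryos with a median of 27.6. Its group difference was -0.09 (SE 0.12, limma adjusted p = 0.832), and it turned to 0.04 among embryos with Ddx3y. Nap1l4, a histone chaperone of nucleosome assembly (chromosome 7, 150699484 to 150734995), was 78.8 to 110.3 FPKM with a median of 95.8 in xHomo embryos, against 86.4 to 91.8 FPKM with a median of 89.5 in xHet embryos. Osbpl5, a lipid transfer protein (chromosome 7, 150874667 to 150927868), was 2.35 to 3.02 FPKM with a median of 2.73 in xHomo embryos, against 2.33 to 2.56 FPKM with a median of 2.33 in xHet embryos. For Nap1l4 and Osbpl5 7 of 10 xHomo embryos each lay above all xHet embryos, and limma adjusted p was 0.765 and 0.672. The share of all genes with as many embryos above was not counted. Osbpl5 was the steadiest member, with a log2 SD of 0.09 among xHomo embryos, above that of 1.12% of genes tested.

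Counted together, 0 of 8 members tested passed between xHomo and xHet embryos in limma, where 0.0235% of all genes passed. Cdkn1c on the higher and Tspan32 on the lower side had an unadjusted p under 0.05, as did 9.35% of all genes, 7.63% higher and 1.72% lower. An exact permutation test of each gene over 286 splits has a smallest possible p of 0.0035. After adjustment over 12755 genes it passed 0 members and 0 of all genes, with a smallest adjusted p of 0.388. A gene could pass only if many reached that smallest p, so the 0 members decide little. Unadjusted, the same 2 members again had a p under 0.05 (exact permutation p = 0.0455 for Cdkn1c and 0.0280 for Tspan32). In 0 of 8 members did the groups separate fully, against 2.24% of all genes, 1.66% higher and 0.58% lower. The median log2 difference of the 8 members was -0.02 with 4 higher and 4 lower, against 0.05 for all genes. All 10 members had a larger log2 SD among xHomo than among xHet embryos, and so had 90.3% of all genes tested. The median SD of all genes tested was 0.23 among xHomo and 0.10 among xHet embryos. How many genes have as many xHomo embryos outside the xHet range as the single members do was not counted. Those counts therefore have no background.

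Embryo by embryo, departures, differences of 1 log2 unit or more, were few and lay in 2 xHomo embryos. xHomo embryo 3 had 3 among the 10 members, Cdkn1c on the higher side, where 0.47% of all genes departed, and Kcnq1ot1 and Tspan32 on the lower side, where 9.71% did. xHomo embryo 6 had 1, Phlda2, on the lower side, where 0.894% of all genes departed. The other 8 xHomo embryos and all 3 xHet embryos had 0. Just inside the limit lay Tspan32 in xHomo embryo 3 at -1.12, and just outside lay Phlda2 in xHomo embryo 4 at -0.99 and Tspan32 in xHomo embryo 6 at -0.96. After median-of-ratios scaling both of these passed the limit and Tspan32 in xHomo embryo 3 did not, while Kcnq1ot1 and Cdkn1c in that embryo stayed past it. On that scale 1.22% of all genes departed upward and 3.53% downward in xHomo embryo 3, and 0.917% and 0.964% downward in xHomo embryos 4 and 6.

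**Figure D3:**
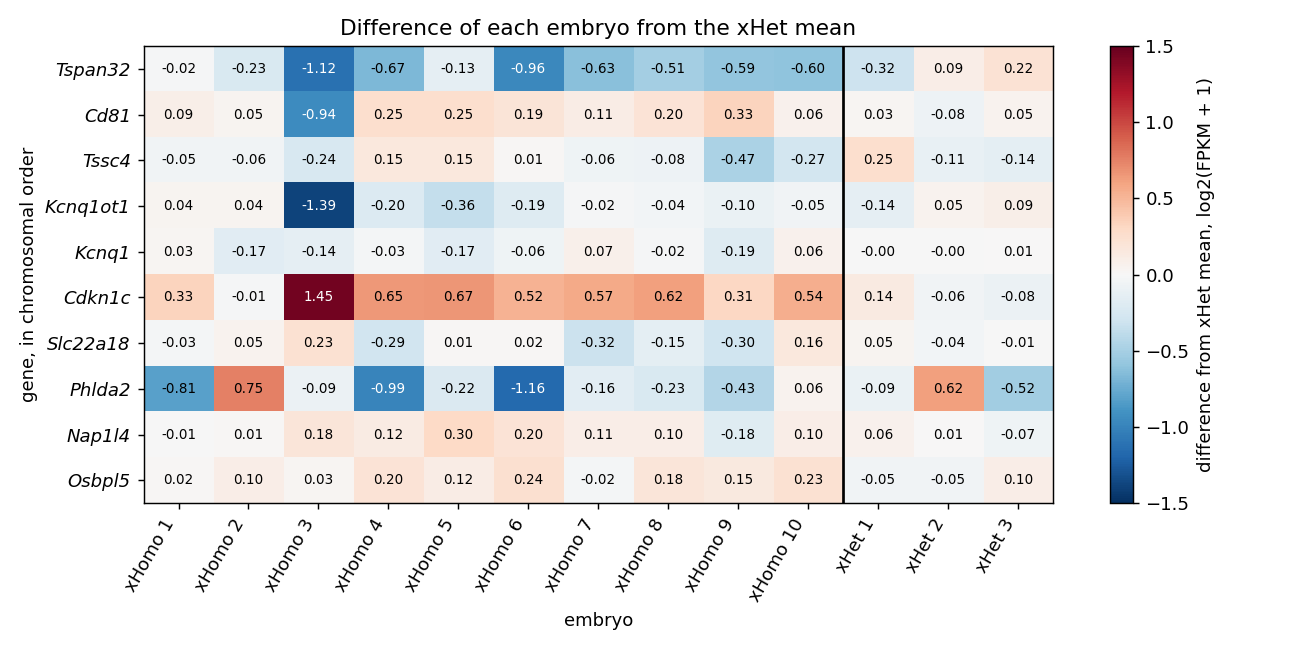
Difference of each embryo from the xHet mean on the log2(FPKM + 1) scale, with members as rows in chromosomal order and embryos as columns, xHomo left of the line and xHet right of it. For an xHet embryo the mean is that of the other 2. The strongest cells are Cdkn1c (1.45) and Kcnq1ot1 (-1.39) in xHomo embryo 3.

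Along the chromosome the members on either side of Kcnq1ot1 did not all share a direction in xHomo embryo 3. Of the 4 members known as maternally expressed in the embryo, Cdkn1c was 1.45 and Slc22a18 0.23 above the xHet mean on the log2 scale, or 1.82 and 0.42 after median-of-ratios scaling. Phlda2 and Kcnq1 were -0.09 and -0.14 from it, or 0.24 and -0.04 after that scaling. The placental members Cd81 and Tspan32 on the side of Kcnq1 were -0.94 and -1.12 from it, or -0.57 and -0.95 scaled, and Tssc4 between them and Kcnq1 was -0.24 from it, or 0.12 scaled. Nap1l4 and Osbpl5 on the far side of Cdkn1c were 0.18 and 0.03 above it, and 0.55 and 0.30 after median-of-ratios scaling. All 5 members from Cdkn1c to Osbpl5 were thus above it on the scaled values, where the median of all genes was 0.03. On that scale 22.4%, 34.7%, 14.6% and 30.1% of genes tested were at least as far up as Slc22a18, Phlda2, Nap1l4 and Osbpl5. For Cdkn1c that share was 0.329%, and of these 5 members only Cdkn1c differed by 1 log2 unit or more.

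**Figure D4:**
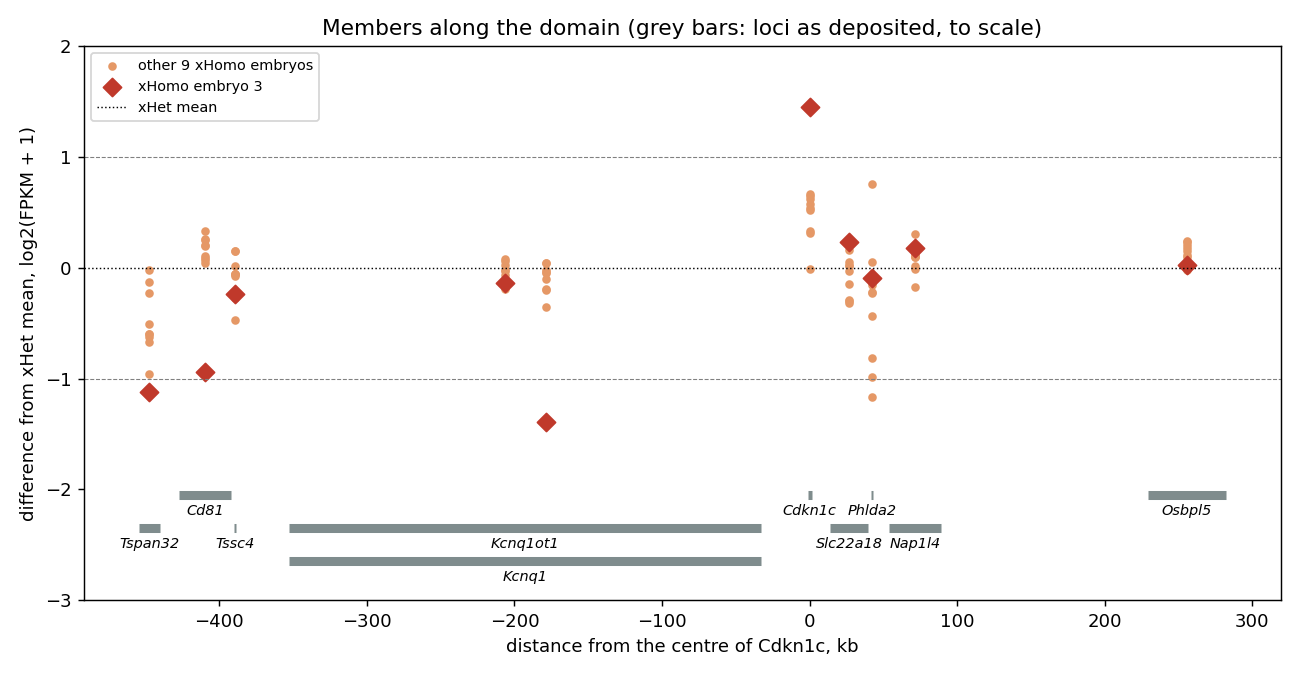
Difference from the xHet mean in log2(FPKM + 1) for each member, placed at the centre of its locus by distance in kb from the centre of Cdkn1c; Kcnq1ot1 and Kcnq1 share a locus and are drawn side by side. Grey bars are the deposited loci to scale, diamonds are xHomo embryo 3, small points are the other 9 xHomo embryos and dashed lines mark 1 log2 unit. In xHomo embryo 3 Cdkn1c stands at 1.45 while Kcnq1ot1, Cd81 and Tspan32 stand at -1.39, -0.94 and -1.12.

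Other long noncoding RNAs kept in the nucleus were also low in xHomo embryo 3, in a list chosen after the values were seen. Malat1 was 32.8 FPKM there, against 66.2 to 97.4 FPKM in the other xHomo embryos and 76.5 to 82.3 FPKM in the xHet embryos. Meg3, Rian and Mirg of the imprinted chromosome 12 domain were 75.6, 94.4 and 12 FPKM there, against at least 240.0, 196 and 31.3 FPKM in xHet embryos. These 3 were lower still in xHomo embryo 7, at 0.69, 3.18 and 1.17 FPKM, where Kcnq1ot1 was 2.37 FPKM. Xist, which coats the inactive X chromosome, was 30.5 FPKM in xHomo embryo 3, against 112 to 159 FPKM in the other 4 xHomo embryos without Ddx3y. Airn, an imprinted antisense RNA, was 3.30 FPKM in xHomo embryo 3, inside the range of 0 to 11 FPKM in the xHet embryos. From the xHet mean Malat1, Meg3, Rian and Mirg were -1.26, -1.74, -1.07 and -1.45 log2 units in xHomo embryo 3, or -0.90, -1.37, -0.70 and -1.10 after median-of-ratios scaling. The part of this shared pattern in the low Kcnq1ot1 of xHomo embryo 3 was not tested. Kcnq1ot1 was 2.18 to 2.50 FPKM in the other 4 embryos without Ddx3y.

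**Figure D5:**
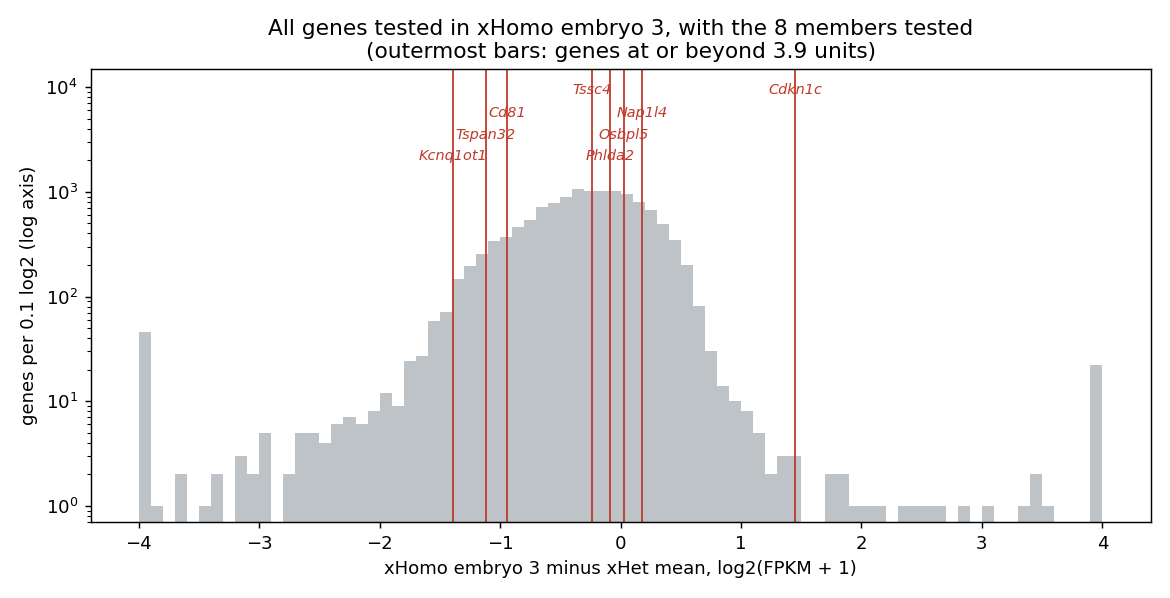
Number of genes tested (log axis) by their difference between xHomo embryo 3 and the xHet mean, in bins of 0.1 on the log2(FPKM + 1) scale, with red lines at the 8 members tested. Unscaled as plotted, 9.71% of genes depart by 1 unit or more on the lower side and 0.47% on the higher side, where Cdkn1c lies, against 3.53% and 1.22% after median-of-ratios scaling.

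Whether the members varied together was asked over the xHomo embryos, for Kcnq1ot1 and for Cdkn1c with every other member, 17 pairs in all. For Kcnq1ot1 and Cdkn1c xHomo embryo 3 lay apart from the other 9 embryos, so no pooled correlation was taken in any pair. Within the other 9 embryos Kcnq1ot1 and Cdkn1c gave Pearson r = -0.604 (exact permutation p = 0.0854, adjusted p = 0.366) and Spearman rho = -0.619 (exact permutation p = 0.0819, adjusted p = 0.348). After dropping the 2 embryos most distant from the Kcnq1ot1 median, r was -0.452. Kcnq1ot1 and Cd81 gave r = -0.663 (exact permutation p = 0.0488, adjusted p = 0.366) and rho = -0.720 (exact permutation p = 0.0344, adjusted p = 0.293). Its r after the same step was -0.624. Cdkn1c and Nap1l4 gave r = 0.626 (exact permutation p = 0.0860, adjusted p = 0.366) and rho = 0.733 (exact permutation p = 0.0311, adjusted p = 0.293). For this pair r was 0.676 after dropping the 2 embryos most distant from the Cdkn1c median. None of the 17 pairs passed after adjustment, and the embryos share library scale and may share litters.

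The genes outside the domain whose pattern over all 13 embryos was most like that of Kcnq1ot1 were Cep152, Dvl1 and Prpf39, with Pearson r of 0.974, 0.969 and 0.967 on the log2 scale. All 3 had their lowest value in xHomo embryo 3, for example 2.62 FPKM of Cep152, against 4.94 to 6.42 FPKM in the other xHomo and 5.48 to 6.68 FPKM in the xHet embryos. Without that embryo the closest genes were others, Decr2, Zfp488 and A130077B15Rik, with r of 0.935, 0.911 and 0.899 over 12 embryos. For Cdkn1c they were Eno1, Basp1 and 5730437N04Rik over 13 embryos, with r of 0.943, 0.916 and 0.908. Eno1 was 279 FPKM in xHomo embryo 3, against 110.5 to 204 FPKM in the other xHomo and 112 to 135 FPKM in the xHet embryos. Without xHomo embryo 3 they were Gnai2, Cnp and Fscn1, with r of 0.971, 0.960 and 0.958. Such values rank likeness over few embryos and carry no test.

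Genes next to the domain were compared in the same fit. Of 16 listed neighbours 11 were tested, 0 passed in limma, and 2, H19 and Mrpl23, had an unadjusted p under 0.05, both higher, as had 7.63% of all genes on that side. H19, the maternally expressed noncoding RNA of the adjoining domain, was 669 ± 119 FPKM in xHomo and 497 ± 23.1 FPKM in xHet embryos (limma adjusted p = 0.509), and Mrpl23, a mitochondrial ribosomal protein gene beside it, was 76.9 ± 19 in xHomo and 55.9 ± 4.59 FPKM in xHet embryos (limma adjusted p = 0.530). In xHomo embryo 3 H19 was 693 FPKM and Igf2, the growth factor gene it is paired with, 312 FPKM, against 480.2 to 523 FPKM of H19 and 418 to 445 FPKM of Igf2 in xHet embryos. From the xHet mean H19 was 0.48 and Igf2 -0.47 log2 units there, or 0.86 and -0.09 after median-of-ratios scaling. Tnfrsf22, a decoy receptor gene between Cars and Osbpl5, was 2.47 ± 0.773 FPKM in xHomo and 3.29 ± 0.483 FPKM in xHet embryos (limma adjusted p = 0.607). The median difference of the 11 neighbours was 0.03.

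The relatives and partners of the Cdkn1c protein were compared likewise. Of 14 genes tested 0 passed, 11 were higher and 3 lower, with a median of 0.12, against 0.05 for all genes. Of all genes 59.7% were higher in xHomo embryos, or 52.2% after median-of-ratios scaling. Cdkn1a, which encodes the related inhibitor p21, was 5.02 ± 1.33 FPKM in xHomo and 3.08 ± 0.472 FPKM in xHet embryos (log2 difference 0.54, limma adjusted p = 0.481) and its lowest xHomo value, 3.83 FPKM, exceeded its highest xHet value, 3.48 FPKM, as held for 1.66% of all genes. Cdkn1b, which encodes p27, was 14.6 ± 3.42 in xHomo and 11.4 ± 0.568 FPKM in xHet embryos (limma adjusted p = 0.569), and the cyclin gene Ccnd3 was 69.3 ± 7.56 in xHomo and 57.1 ± 3.09 FPKM in xHet embryos (limma adjusted p = 0.499).

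Factors known to silence or maintain imprinted domains, 15 of 16 listed genes tested, had 0 passing, 12 higher and 3 lower, and a median difference of 0.07. Of all genes 59.7% were higher. Rnf2, a catalytic subunit of Polycomb complex PRC1, was 32.3 ± 3.37 FPKM in xHomo and 27.1 ± 0.674 FPKM in xHet embryos (limma adjusted p = 0.509). Hnrnpk, an RNA-binding protein tied to Polycomb recruitment, was 445 ± 58.8 in xHomo and 382 ± 12.5 FPKM in xHet embryos (limma adjusted p = 0.593), and the DNA methyltransferase gene Dnmt3a was 15.9 ± 2.15 in xHomo and 14.1 ± 0.361 FPKM in xHet embryos (limma adjusted p = 0.667). Yolk sac markers were low in xHomo embryo 3, where all 4 tested, Afp, Ttr, Rbp4 and Trf, were 1 log2 unit or more below the xHet mean. After median-of-ratios scaling 2 of 4 were, Afp and Trf. Of all genes 9.71% were that far down in this embryo, or 3.53% after scaling. The yolk sac list summed to 14.4 FPKM there, against 41.0 to 80.9 FPKM in the other xHomo and 43.3 to 57.6 FPKM in the xHet embryos. Decidua markers summed to 17.6 to 29.4 FPKM in xHomo and 19.03 to 22.3 FPKM in xHet embryos, and Prl3c1 was listed at 0 in all 13. The part of these tissues in the members' values was not tested.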

How the data were processed

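RNA of 13 embryos was extracted on RNeasy columns with DNase, and directional poly(A) libraries were made, per the labels' protocols. The authors deposited FPKM per gene and embryo on mm9. Tools named per the submitters' processing notes are TopHat, Cufflinks and bcl2fastq 1.8.2. The sources used here do not give the annotation or the use of strand. FPKM holds no counts: in 183 short low genes at most 31.7% of values fell within 0.1 of whole steps, so depth is unknown. Locus starts were raised by 1, since the deposited widths equalled the RefSeq gene length for 7169 genes.

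Groups came from sample titles. Genes with a mean of at least 1 FPKM, 12755 in all, were tested on log2(FPKM + 1) with limma 3.58.1 in R 4.3.3 (trend, two-sided, Benjamini-Hochberg at 0.05, no covariates), a step tested on simulated data. Departures are values differing by 1 log2 unit or more from the mean of the xHet embryos (for an xHet embryo, of the other 2), given without a test. Correlations used permutations, enumerated over 9 embryos, and none was pooled where a gap exceeded 0.5 of a gene's range. Genes most like Kcnq1ot1 or Cdkn1c were the 3 with the highest r, and of each list the up to 3 with the smallest p could be named. The labels give no batches. Alternatives were the pseudocount, the filter, 2 rescalings, an Xist covariate, array weights, a permutation test, leaving out embryos, the replicate block and, after seeing the data, embryos with Ddx3y above 1 FPKM, called male in no label. The members and gene lists were chosen with earlier results of these data known. Python 3.11.15, numpy 2.4.6, pandas 2.3.3, scipy 1.17.1 and matplotlib 3.10.9 were used.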

Additional observations from a re-analysis of the deposited data

Results flagged for a closer look

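Single xHomo embryos lay far from the other 9 for 4 of 10 members, by the gap to the nearest embryo as a share of the group's range, against Dixon's 95% critical value. Chance alone flags about 1 in 20 groups, and the same rule flagged 16.7% of all genes tested, and 11.9% of all genes tested through xHomo embryo 3. Kcnq1ot1 was 0.30 FPKM in xHomo embryo 3 (share 0.618). Cdkn1c was 192 FPKM in the same embryo (share 0.659). Cd81 was 89.3 FPKM in that embryo too (share 0.696), in which 9.71% of all genes were 1 log2 unit or more below the xHet mean, or 3.53% after median-of-ratios scaling. Phlda2 was 11.8 FPKM in xHomo embryo 2 (share 0.522), and xHet embryo 2 was at 9.09 FPKM.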

How the results depend on the processing

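Of all genes 3 passed, and 11 did with no filter on low values, 5 after rescaling to a fixed sum, 1 with the Xist covariate, 2779 with array weights, 0 in the exact permutation test, 8 among embryos with Ddx3y and 1 to 11 on leaving out 1 embryo (1 without xHet embryo 2 or 3, 5 without xHomo embryo 2, 11 without xHomo embryo 3). Of the members 0 passed, and 2 with array weights (Cdkn1c and Tspan32). The count was 0 in all other settings run. Of the list genes 0 passed, and 23 with array weights. With the replicate block 1 gene and 0 members passed. Same-numbered embryos did not deviate together (correlations of -0.07, -0.04 and -0.04, with 0 of 3 matching best by number). So few embryos cannot decide whether the numbers pair them. The difference of Tssc4 turned to 0.037 with the Xist covariate and 0.037 among embryos with Ddx3y, and that of Cd81 to -0.018 after rescaling to a fixed sum and -0.27 with the block, where that of Phlda2 was -0.05 and that of Kcnq1ot1 -0.44. Signs of the other tested members did not turn under the settings run. Departures in xHomo embryos numbered 4, 16 at a 1.5-fold threshold and 3 to 6 on leaving out an xHet embryo. Pairs with a pooled correlation numbered 0 to 17 on leaving out an xHomo embryo, 17 only without xHomo embryo 3. The cause of these changes was not tested. Low FPKM (Kcnq1, Slc22a18, and Kcnq1ot1 at 0.30 FPKM in xHomo embryo 3) are the least certain, and their depth is unknown.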
